A study of Mus musculus with 8 samples.

Results

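Hepatokines are hormones that the liver secretes into the blood, and several of them follow fasting and feeding. The genes described here are 9 of them, Fgf21, Gdf15, Angptl4, Angptl6, Angptl8, Inhbe, Fst, Lect2 and Fetub, chosen by name as liver-secreted hormones and matched to the Ensembl identifiers of the count table. The table has 20894 genes and includes 8 of these hormones. Angptl4, which encodes an inhibitor of lipoprotein lipase, was not analysed here. Wild-type mice were injected with AAV8, a vector made from an adeno-associated virus. In the treated group it carried POLR2G, which is part of the RNA polymerase II complex, and in the control group GFP, a fluorescent marker protein. The TBG promoter, which restricts expression largely to hepatocytes, drove both transgenes. Livers were taken at the end of a daytime fast in both groups, snap-frozen, and their RNA was sequenced after poly-A selection. There were 4 libraries per group: GFP replicates 1 to 4, and POLR2G replicates 1, 3 and 4 with 1 more POLR2G library, whose name in the table matches no listed library and which is called the unnumbered library here. The labels give no age, sex or strain, name no fed group, and tie no library to an animal, so each p-value rests on how much the libraries vary, which may be technical.

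FGF21 is made by hepatocytes in response to fasting through the nuclear receptor PPARA, and to amino acid or organelle stress through the transcription factor ATF4. It signals through FGF receptors together with the co-receptor beta-Klotho. GDF15 is a stress hormone that acts on the brainstem receptor GFRAL. ANGPTL8 is induced by insulin and feeding and takes part in inhibiting lipoprotein lipase in muscle and heart, so its usual direction on fasting is opposite to that of FGF21. INHBE is the subunit of activin E, and follistatin (FST) binds and blocks activins. ANGPTL6, LECT2 and fetuin-B (FETUB) are liver-secreted proteins linked to body weight and insulin action. The series title names Fgf21, and the comparison asks how extra POLR2G in hepatocytes changes it and the other hormones of the fasted liver.

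The promoters of 3 of the hormone genes hold the same 8 letters, shown here because ATF4 and C/EBP proteins bind such a composite site as background knowledge, and because the values of these genes can be set beside each other below. The sequences come from RefSeq on GRCm38.p6, in which 7 of the 9 genes had an entry. Each line gives 28 bases in the orientation of the site, with the site in capitals. Fgf21 lies at chr7:45615612-45615639 and is printed from the minus strand, which is its own. Angptl8 lies at chr9:21835370-21835397 and is printed from the minus strand, opposite to the gene. Inhbe lies at chr10:127352012-127352039 and is printed from the minus strand, which is its own.
Fgf21: gacccccccaTTGCATCAtccgtccagg
Angptl8: ggctcagccaTTGCATCAgactgatggc
Inhbe: atcctctttcTTGCATCAtgcatgtcca
The site begins 139 bases before the RefSeq start of Fgf21 and 181 before that of Inhbe, and its 5′-most base on the gene strand lies 130 bases before that of Angptl8. Outside the site, 8 of the 20 flanking bases of Angptl8 and 6 of those of Inhbe were the same as in Fgf21. The letters TTGCATCA, on either strand, occur within the 250 bases before the start of 0.918% of the 27025 genes in the RefSeq promoter table. The RefSeq start of Inhbe lies inside the longer GENCODE M21 gene model, so that window is not upstream of every annotated transcript.

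The whole window before the start of Fgf21 (chr7:45615491-45615740, minus strand) is shown because Fgf21 is the hormone gene whose 2 groups did not overlap. The composite site is in capitals.
Fgf21 promoter: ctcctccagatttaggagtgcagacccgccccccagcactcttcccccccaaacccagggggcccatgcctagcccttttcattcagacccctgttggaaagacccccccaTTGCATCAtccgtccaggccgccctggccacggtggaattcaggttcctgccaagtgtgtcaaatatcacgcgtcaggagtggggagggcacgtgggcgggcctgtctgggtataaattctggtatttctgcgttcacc
It also holds the E-box CACGTG, 50 bases before the start, which occurs in 6.86% of genes in such windows and in 2 of the hormone genes, Fgf21 and Gdf15. A perfect DR1 element, the kind that PPARA binds (0.0407% of genes), a cyclic AMP response element (TGACGTCA, 1.77%) and the core of an interferon response element (3.46%) had no match in the windows of the hormone genes. All motifs were searched on both strands and were chosen after these promoter letters had been seen. These are matches of letters in short windows, and binding was not measured.

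Polr2g, the gene the vector carries, separated the groups, with 213 to 258 counts in the GFP libraries and 38649 to 54553 in the POLR2G libraries. Library totals ran from 14159056 to 22165491 estimated counts. Hepatocyte markers (Alb, Ttr, Apoa1, Cyp2e1, Serpina1a, Tat) summed to between 112000 and 141000 CPM in all libraries, where CPM is the count scaled to the library total after TMM correction. The summed markers of the other 8 cell types overlapped between the groups: those of Kupffer cells spanned 167 to 265 CPM in the GFP and 187 to 319 CPM in the POLR2G libraries, and those of adipocytes 1.57 to 3.67 and 0.854 to 2.34 CPM. In whole liver, fewer cells of a type and less RNA per cell cannot be told apart.

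None of the 8 hormone genes changed at an adjusted p under 0.05 in edgeR's quasi-likelihood test over the 10390 genes tested. Of these 10390, 0.0385% did (0.0192% lower and 0.0192% higher in the POLR2G group), which is 4 genes. Polr2g, the gene the vector carries, is 1 of the 4 (log2 fold change 7.46, edgeR adjusted p = 3.2e-10). At an unadjusted p under 0.05 in the same fit there was 1 hormone gene, Fgf21, where 8.3% of all genes tested passed (4.1% lower, 4.2% higher). DESeq2 and limma-voom also called none of the 8. Fgf21 was also the 1 hormone gene of 8 whose groups did not overlap, where the groups of 5.51% of all genes tested did not (2.68% lower, 2.83% higher). All 8 passed the low-count filter, which needs about 10 counts in at least 4 libraries. The plot of CPM by library shows how the 2 groups lie for each hormone.

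**Figure D1:**
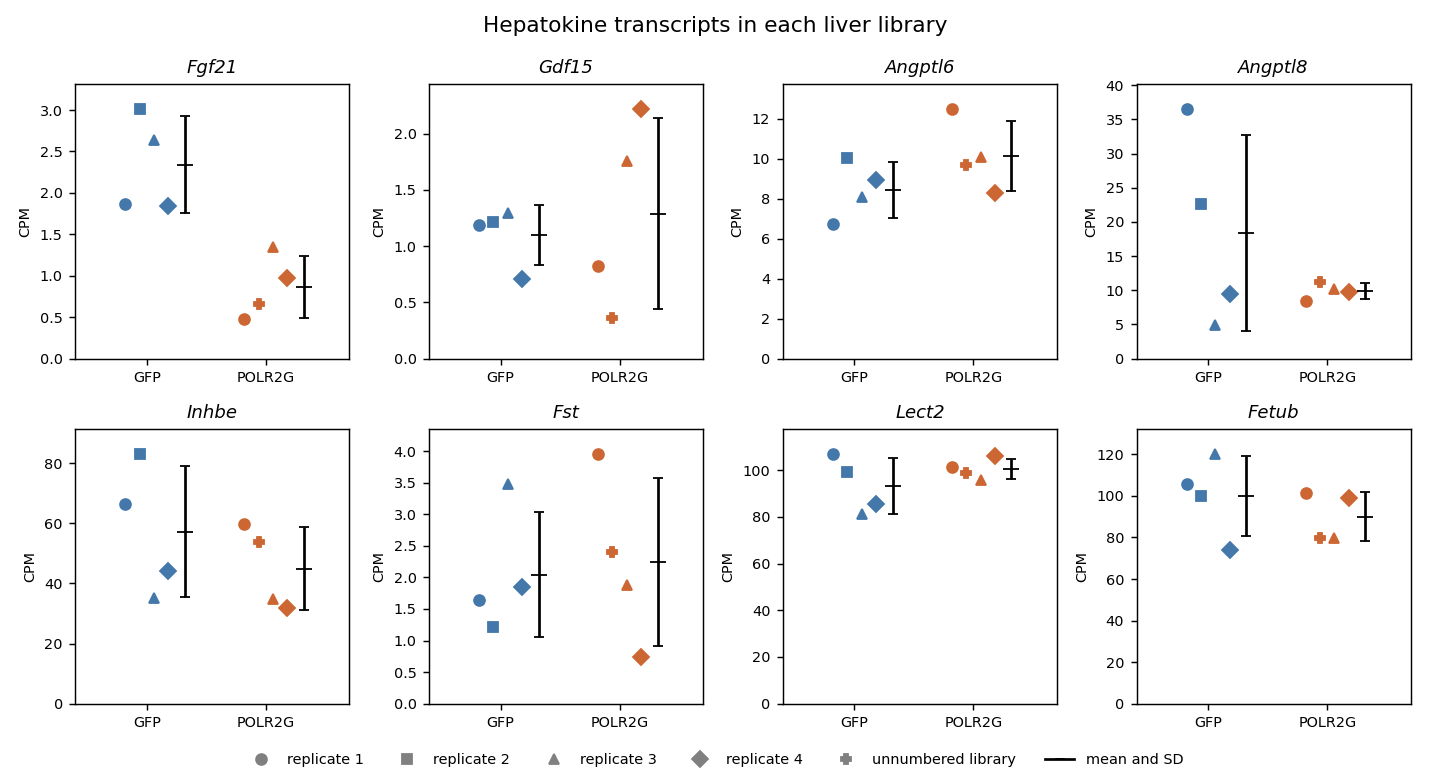
CPM (y axis, linear, from 0) of the 8 hormone genes in each library of the GFP and POLR2G groups; symbols give the replicate, and the black bar the mean with its SD over 4 libraries. The Fgf21 points of the POLR2G group lie between 0.483 and 1.35 CPM, below all 4 GFP points, while the groups overlap in the other 7 panels.

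Fgf21 (ENSMUSG00000030827; GRCm38 chromosome 7, 45613886 to 45615490, minus strand; 1 coding transcript of 3 exons and 951 bases in GENCODE M21) was weakly expressed. It measured 1.87, 3.02, 2.64 and 1.84 CPM in GFP replicates 1 to 4. Among the POLR2G libraries replicate 3 was highest with 1.35 CPM, then replicate 4 with 0.968, the unnumbered library with 0.659 and replicate 1 with 0.483 CPM. The highest POLR2G library lay below the lowest GFP library, and levels within the POLR2G group differed by up to 2.79-fold. These levels rest on 33 to 52 counts in the GFP and 10 to 23 counts in the POLR2G libraries. The exact 95% Poisson interval of the POLR2G replicate 3 count, 14.6 to 34.5, overlapped that of the lowest GFP count, 22.7 to 46.3. Such intervals cover counting error only. The CV of the CPM was 24.9% in the GFP and 43.9% in the POLR2G group, where counting alone would give 15.8% and 25.6%.

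The fitted log2 fold change of Fgf21, POLR2G against GFP, was −1.44 (SE 0.381, n = 4 per group), which is 2.71-fold lower. Its 95% interval ran from −2.29 to −0.58 on the log2 scale, or from 0.204 to 0.670 of the GFP level. An exact permutation test on log2 CPM, two-sided, returned p = 0.0286, the lowest value possible with 4 libraries in each group. Over all genes the edgeR adjusted p was 0.344, and Fgf21 ranked 125 by p among the 10390 genes. With each library left out in turn the log2 fold change stayed between −1.73 and −1.23. DESeq2 gave −1.44 with an adjusted p of 0.0599, the smallest adjusted p among the 18 alternatives, whose largest was 0.694.

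The genes whose pattern was most like that of Fgf21 were sought among 9391 tested genes with a mean of at least 1 CPM, by Pearson's r of log2 CPM over the 8 libraries. They were Serpina6 (r 0.986), Cyp4a10 (r 0.982), Cyp4a14 (r 0.974), Cyp2j9 (r 0.951) and Usp31 (r 0.950). Serpina6 encodes the corticosteroid-binding globulin of plasma, Cyp4a10 and Cyp4a14 fatty acid omega-hydroxylases that are classic PPARA targets, Cyp2j9 a cytochrome P450 and Usp31 a ubiquitin protease. Since the 2 groups are apart in all of these genes, the r includes the difference between them. After the group means were taken out it was 0.965 for Serpina6, 0.934 for Cyp4a10, 0.927 for Cyp4a14, 0.802 for Cyp2j9 and 0.788 for Usp31. These values describe 8 libraries that share their scaling, and the genes were the top of 9391. Taking out the group means does not undo that choice, which raises both sets of r. The Fgf21 levels rest on 10 to 52 counts per library.

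The bar plot ordered by Fgf21 gives the library values behind these r. Cyp4a10 and Cyp4a14 were picked for their likeness to Fgf21 in the same libraries, so their similar order follows from that choice. GFP replicates 2 and 3 were the highest for Fgf21 and also for Cyp4a10, at 366 and 345 CPM, against 261 and 263 CPM in replicates 1 and 4. Cyp4a14 measured 291 CPM in both GFP replicates 2 and 3, and 73.5 and 137 CPM in replicates 1 and 4. In the POLR2G group replicate 3 was the highest for all 3 genes, with 169 CPM of Cyp4a10 and 19.1 CPM of Cyp4a14, and replicate 4 the next, with 108 and 8.89 CPM. The other 2 libraries were lowest for all 3 genes, at 78.6 and 72.9 CPM of Cyp4a10 and at 3.33 and 6.89 CPM of Cyp4a14 in replicate 1 and the unnumbered library. Serpina6 spanned 251 to 286 CPM in the GFP and 170 to 240 CPM in the POLR2G libraries, a much narrower range in the same order apart from neighbouring libraries that changed places. None of the 5 genes passed over all genes (edgeR adjusted p from 0.0668 for Cyp4a14 to 0.450 for Usp31). Estimated counts can be split between the near-identical Cyp4a genes.

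**Figure D2:**
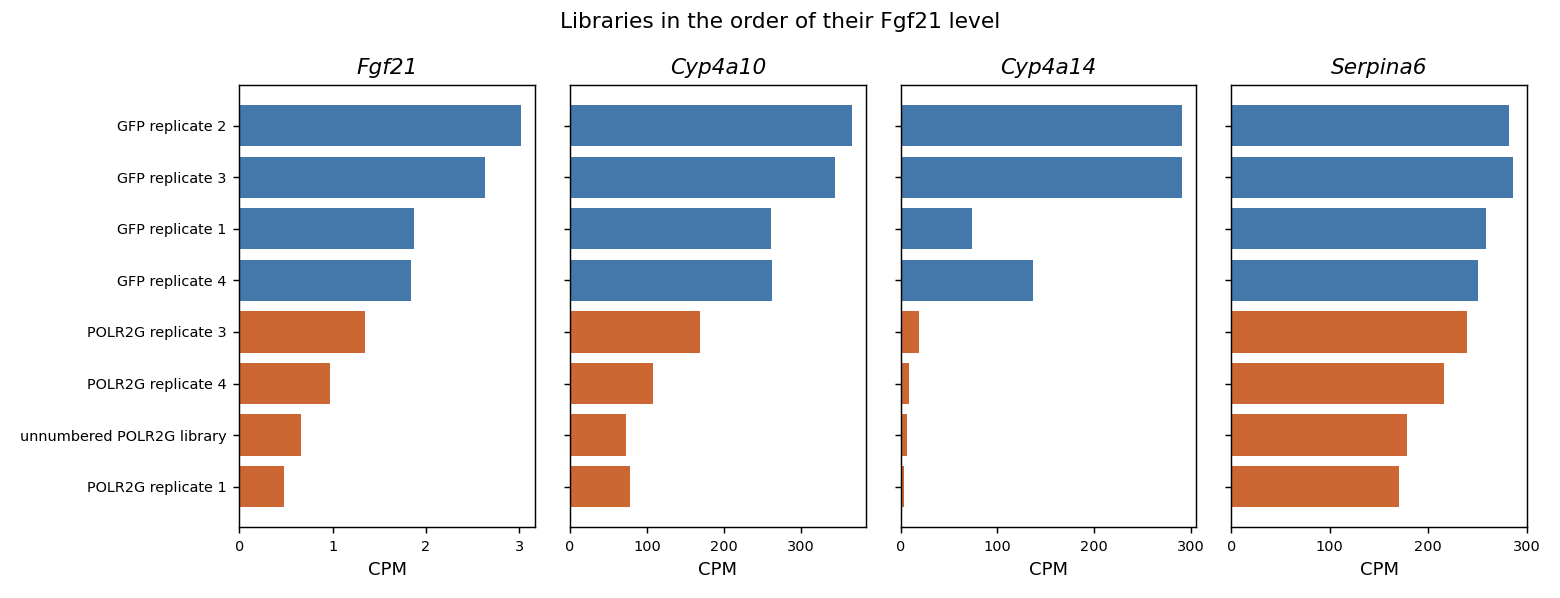
CPM (x axes, linear, from 0) of Fgf21, Cyp4a10, Cyp4a14 and Serpina6 in the 8 libraries, listed from the highest to the lowest Fgf21 level, with GFP libraries in blue and POLR2G libraries in orange. Cyp4a10 runs from 366 CPM in GFP replicate 2 to between 72.9 and 169 CPM in the POLR2G libraries, in nearly the same order as Fgf21. The genes shown beside Fgf21 were chosen for their high r with it in these libraries.

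Angptl8 (ENSMUSG00000047822; chromosome 9, 21835510 to 21837347, plus strand; 1 coding transcript) had the largest CV of the 8 hormone genes, 77.8%, in the GFP group, against 11.7% in the POLR2G group. GFP replicates 1 to 4 measured 36.6, 22.6, 4.84 and 9.43 CPM, a 7.56-fold range on 647, 390, 75 and 174 counts. The POLR2G libraries lay close together, from 8.40 CPM (replicate 1) through 9.80 (replicate 4) and 10.2 (replicate 3) to 11.2 CPM (unnumbered), a 1.33-fold range. GFP replicates 1 and 2 were above the POLR2G range, replicate 4 within it and replicate 3 below it. The difference was not past the spread of the controls (log2 fold change −0.90, SE 0.508, 95% interval −2.04 to 0.25, edgeR adjusted p = 0.711, exact permutation p = 0.457). Without GFP replicate 1 it was −0.32, and without GFP replicate 3 −1.21. The gene lies within Dock6 on the other strand and shares 0 exon bases with it.

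Angptl8 is a feeding-induced gene, so the other insulin- and feeding-induced genes are given beside it. GFP replicate 1, the highest for Angptl8, had 460 CPM of the fatty acid synthase gene Fasn, and GFP replicate 2, the next highest, 489 CPM. GFP replicate 4, with 9.43 CPM of Angptl8, had the highest Fasn of all libraries, 710 CPM. The highest Scd1, the gene of a fatty acid desaturase, was also in GFP replicate 4, at 16000 CPM against 6090 and 7840 CPM in GFP replicates 1 and 2. The POLR2G libraries spanned 279 to 408 CPM of Fasn and 4540 to 8450 CPM of Scd1. GFP replicates 1 and 2 were thus above all POLR2G libraries for Fasn but not for Scd1. Fasn and Scd1 were taken after their values were seen. Of 9 tested feeding-induced genes 0 were called by edgeR or DESeq2 (0 at an unadjusted p under 0.05). A lower fitted mean was found in 8 of the 9, where 50.7% of all genes tested had one. Their median log2 fold change was −0.14, from −0.29 without GFP replicate 3 to −0.036 without POLR2G replicate 3. Fasn had a log2 fold change of −0.49 (SE 0.222).

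Inhbe (ENSMUSG00000047492; chromosome 10, 127348857 to 127354411, minus strand; 1 coding transcript) varied within both groups. It measured 66.5, 83.1, 35.1 and 44.2 CPM in GFP replicates 1 to 4, and 59.6, 34.8, 31.7 and 53.6 CPM in POLR2G replicates 1, 3, 4 and the unnumbered library. GFP replicates 1 and 2 lay above all POLR2G libraries, POLR2G replicates 3 and 4 below all GFP libraries, and the other 4 libraries in the stretch that the groups share. With 544 to 1432 counts per library, counting error would give a CV near 3.18% in the GFP group, where the measured CV was 38.0%. The log2 fold change was −0.35 (SE 0.291, 95% interval −1.002 to 0.31, edgeR adjusted p = 0.819, exact permutation p = 0.400). It was −0.52 without GFP replicate 3 and −0.11 without GFP replicate 2.

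Fst (ENSMUSG00000021765; chromosome 13, 114452290 to 114458951, minus strand; 4 coding transcripts), whose product neutralises activins, was at 1.64, 1.22, 3.48 and 1.84 CPM in GFP replicates 1 to 4. POLR2G replicates 1, 3 and 4 measured 3.96, 1.87 and 0.741 CPM and the unnumbered library 2.40 CPM, on 82, 32, 13 and 40 counts. The POLR2G group thus held both the highest and the lowest library. The log2 fold change was 0.14 (SE 0.504, 95% interval −0.99 to 1.27, edgeR adjusted p = 0.975, exact permutation p = 0.943), and it was −0.29 without POLR2G replicate 1. Fst shares 230 exon bases with an antisense gene, and the labels do not say that the counting used strand.

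Gdf15 (ENSMUSG00000038508; chromosome 8, 70629393 to 70632456, minus strand; 2 coding transcripts) had 21, 21, 20 and 13 counts in GFP replicates 1 to 4. POLR2G replicates 1, 3 and 4 had 17, 30 and 39 counts and the unnumbered library 6. These are 0.704 to 1.29 CPM in the GFP and 0.359 to 2.22 CPM in the POLR2G libraries, so the POLR2G group spread over 6.18-fold and covered the whole GFP range. The unnumbered library, lowest for Gdf15, and POLR2G replicate 4, highest for it, did not have the extreme Fgf21 levels of the group. The fitted log2 fold change was 0.23 (SE 0.527, 95% interval −0.95 to 1.41, edgeR adjusted p = 0.948), while the difference of mean log2 CPM was −0.011 (exact permutation p = 1.0). These measures thus differed in sign, and the cause was not tested. The fitted log2 fold change was −0.17 without POLR2G replicate 4.

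Lect2, Fetub and Angptl6 had CVs between 4.22% and 19.4% in both groups. Lect2 (ENSMUSG00000021539; chromosome 13, 56542464 to 56548502, minus strand; 2 coding transcripts) spanned 81.2 to 107 CPM in the GFP and 96.0 to 106 CPM in the POLR2G group (log2 fold change 0.11, SE 0.0936, 95% interval −0.10 to 0.32). Its interval leaves room for a level between 0.932 and 1.25 of the GFP level. Fetub (ENSMUSG00000022871; chromosome 16, 22918334 to 22939778, plus strand; 7 coding transcripts) spanned 73.9 to 120.3 and 79.7 to 101.3 CPM (log2 fold change −0.15, SE 0.149, 95% interval −0.49 to 0.18). Angptl6 (ENSMUSG00000038742; chromosome 9, 20873808 to 20879727, minus strand; 1 coding transcript) measured 6.73, 10.04, 8.06 and 8.94 CPM in GFP replicates 1 to 4, and 12.5, 10.1, 8.26 and 9.70 CPM in POLR2G replicates 1, 3, 4 and the unnumbered library. Its log2 fold change was 0.26 (SE 0.173, 95% interval −0.12 to 0.65), and it shares 265 exon bases with A230050P20Rik on the other strand. The edgeR adjusted p of these 3 genes was 0.824, 0.847 and 0.753, and the exact permutation p 0.343, 0.543 and 0.200. With 1 library left out, Lect2 ran from 0.047 (without GFP replicate 3) to 0.18 (without GFP replicate 1), Fetub from −0.27 (without GFP replicate 4) to −0.053 (without GFP replicate 3), and Angptl6 from 0.15 (without POLR2G replicate 1) to 0.36 (without GFP replicate 2).

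**Figure D3:**
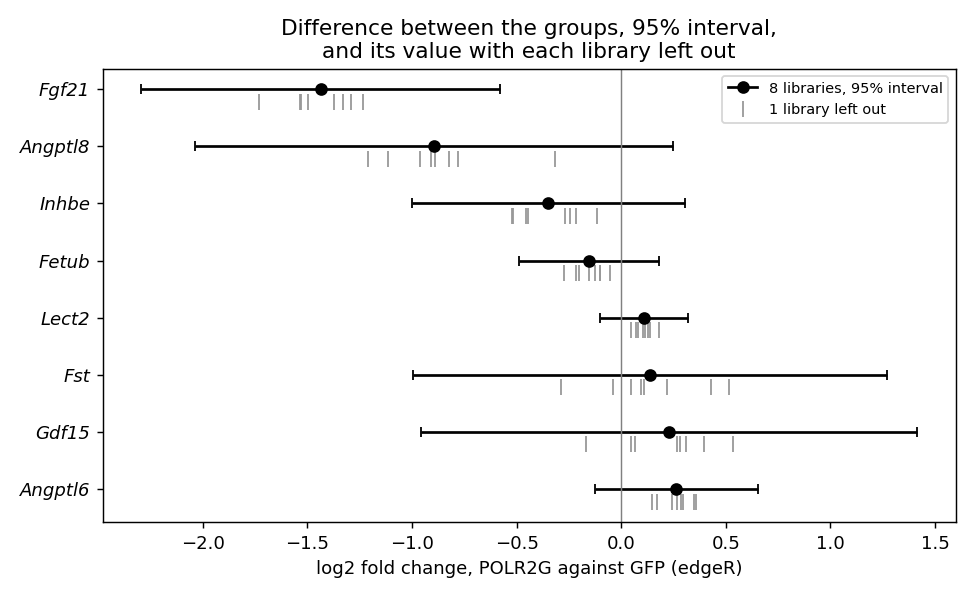
Log2 fold change (x axis, POLR2G against GFP, edgeR) of each hormone gene with its 95% interval as a black bar, and grey ticks for the 8 fits that leave out 1 library. The interval of Fgf21, −2.29 to −0.58, lies below 0, while those of the other 7 genes include 0; the grey ticks of Fst and Gdf15 fall on both sides of 0.

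Levels of different hormones were compared per length of the longest coding transcript, as CPM per kb. In the GFP libraries Lect2 led with 111 ± 14.3 CPM per kb (SD, n = 4), followed by Fetub with 62.6 ± 12.2, Angptl8 with 21.2 ± 16.5, Inhbe with 10.8 ± 4.09, Angptl6 with 5.34 ± 0.885, Fgf21 with 2.46 ± 0.614, Fst with 0.722 ± 0.350 and Gdf15 with 0.712 ± 0.173 CPM per kb. Neighbours in this order did not overlap in the GFP libraries, apart from Angptl8 with Inhbe and Fst with Gdf15. In the POLR2G libraries Fgf21, at 0.909 ± 0.399 CPM per kb, lay among Gdf15 (0.835 ± 0.551) and Fst (0.791 ± 0.472), whose ranges it overlapped. Lect2 remained the highest there at 120.1 ± 5.07 CPM per kb. The order depends on the annotated lengths: the table may hold part of the transcripts of genes with several, and Fetub, Fst, Gdf15 and Lect2 have more than 1 coding transcript. For Inhbe the length used was 5319 bases, from the GENCODE M21 model inside which its RefSeq start lies. A shorter Inhbe transcript would raise its level per kb, so its place beside Angptl8 is uncertain.

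**Figure D4:**
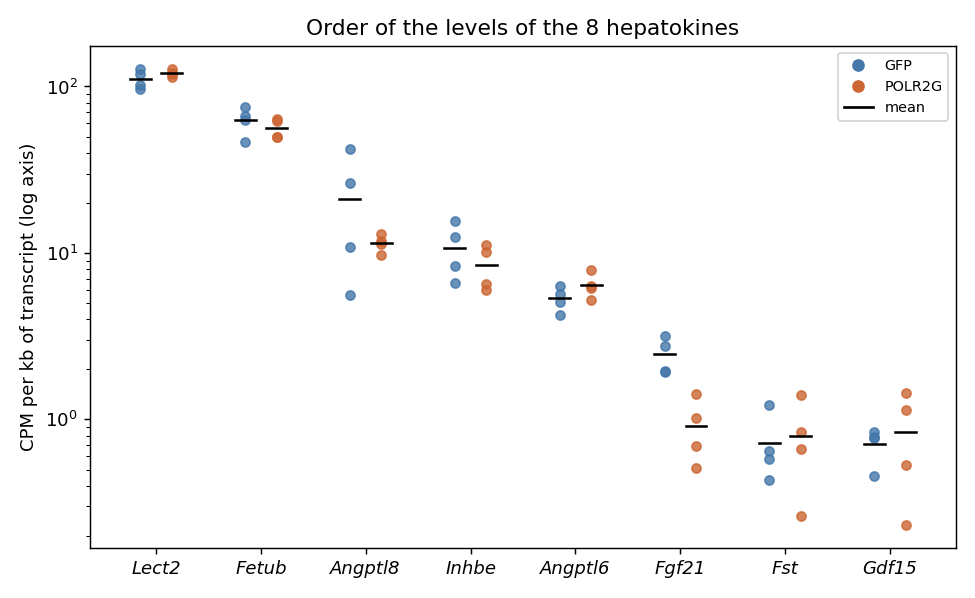
CPM per kb of the longest coding transcript (y axis, log scale) for the 8 hormone genes, ordered by their GFP mean; points are libraries and black lines group means. Fgf21 stands between Angptl6 and Fst in the GFP libraries and at the level of Fst and Gdf15 in the POLR2G libraries.

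The pathways around the hormones were followed in 11 gene lists, described by counts beside all 10390 genes tested, whose median log2 fold change was −0.0031 and of which 50.7% had a lower fitted mean. At an unadjusted edgeR p under 0.05, 4.1% of all genes tested were lower and 4.2% higher, the shares for the list counts below. In the list of PPARA target enzymes and transporters 1 of 18 tested genes was called, the fatty acid transporter gene Cd36, which fell 1.75-fold, from 34.4 to 42.4 CPM in the GFP to 19.6 to 24.7 CPM in those given POLR2G. Its log2 fold change was −0.80 (SE 0.101), with an edgeR adjusted p of 0.0481. The size of the Cd36 difference held in all 18 alternatives (−0.88 to −0.74), but its call held in 6 of them (adjusted p from 2.437e-08 to 0.348), and leaving out any library other than GFP replicate 1 ended it (adjusted p 0.0704 to 0.186). DESeq2 called 8 of the 18 genes, all lower (Cd36, Cyp4a10, Cyp4a14, Cyp4a31, Acot1, Acaa1b, Vnn1 and Pdk4), where it called 1.33% of its 9758 genes and 0.625% as lower. All 18 had a lower fitted mean. Their median was −0.26, with −0.41 without the unnumbered library or without POLR2G replicate 3, and −0.22 without POLR2G replicate 4. In 7 of the 18, as in Fgf21, the groups did not overlap, where 2.68% of all genes tested were apart in that direction. These targets were known to be lower when the list was drawn up, so the count is a description. The carnitine palmitoyltransferase gene Cpt1a is also a PPARA target, singled out with its values known, and its groups overlapped (log2 fold change −0.15, SE 0.108).

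Among 16 tested regulators of Fgf21 transcription 0 were called by edgeR or DESeq2. At an unadjusted p under 0.05 there were 3, all lower, where 4.1% of all genes tested were lower. The median was −0.043, which became 0.045 without GFP replicate 1. The smallest p belonged to the coactivator gene Ppargc1a, whose groups did not overlap, at 16.6 to 22.2 CPM in the GFP and 11.9 to 16.0 CPM in the POLR2G libraries. Its log2 fold change was −0.48 (SE 0.134, edgeR adjusted p = 0.360). The next was the corepressor gene Ncor1 (−0.31, SE 0.115, adjusted p = 0.495). The third was Irf3, which the series title names and which is added here for that reason, at 11.2 to 17.6 CPM in the GFP and 9.28 to 11.7 CPM in the POLR2G libraries, with overlap (−0.38, SE 0.160, adjusted p = 0.565). Ppara itself (−0.15, SE 0.132) and Creb3l3 (0.046, SE 0.0841), which encode the 2 transcription factors that drive Fgf21 in the fasted liver, overlapped between the groups and are given for their role. Of 9 tested genes of ATF4 and the integrated stress response 0 were called by edgeR or DESeq2 (1 at an unadjusted p under 0.05), and the median was 0.088, which became −0.13 without POLR2G replicate 1 and −0.082 without POLR2G replicate 3. Vldlr, a lipoprotein receptor gene, had a log2 fold change of −2.06 (SE 0.583, edgeR adjusted p = 0.360) on 4 to 64 counts with overlapping groups, and Chac1, which encodes a glutathione-degrading enzyme, 0.82 (SE 0.389, adjusted p = 0.633). The low counts of the list left Atf3, Ddit3, Asns, Phgdh, Slc7a11 and Nupr1 untested.

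Of the FGF21 receptor genes Fgfr1 (log2 fold change 0.93, SE 0.652) and Fgfr4 (−0.13, SE 0.0905) had the smallest p among 4 tested, and 0 were called by edgeR or DESeq2 (0 at an unadjusted p under 0.05). The co-receptor gene Klb was not analysed here. Fgfr1 ran from 6 to 138 counts within the GFP group alone. Of the receptors of other hormones, Met (0.11, SE 0.0846), a receptor for hepatocyte growth factor that also binds LECT2, and Tie1 (0.0097, SE 0.153), a vascular receptor, were the 2 tested and neither was called. Gfral and Ret, the receptor pair of GDF15, had 0 counts in all 8 libraries.

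In the activin and follistatin family 0 of 8 tested genes were called by edgeR or DESeq2 (1 lower and 1 higher at an unadjusted p under 0.05), with a median of 0.080, which became −0.0098 without GFP replicate 4. The activin subunit gene Inhbb measured 5.94, 1.86, 5.74 and 1.08 CPM in GFP replicates 1 to 4, against 0.917 to 1.11 CPM in all POLR2G libraries. Its log2 fold change was −1.82 (SE 0.530, edgeR adjusted p = 0.373). GFP replicates 1 and 3 were high and replicate 2 also lay above all POLR2G libraries, so the groups overlapped in GFP replicate 4 alone. GFP replicate 3 was at the same time the lowest of the GFP libraries for the activin E gene Inhbe. Acvr2b, an activin receptor gene, was at 0.961 to 3.74 CPM in the GFP and 3.99 to 5.51 CPM in the POLR2G group, without overlap (log2 fold change 0.89, SE 0.361, edgeR adjusted p = 0.543).

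In the lipoprotein lipase axis, on which ANGPTL4 and ANGPTL8 act, 0 of 10 tested genes were called by edgeR (1 at an unadjusted p under 0.05). Lpl, the gene of lipoprotein lipase itself, was not among these 10. The median was −0.058, from −0.14 without GFP replicate 2 to −0.034 without POLR2G replicate 4. The endothelial lipase gene Lipg had the smallest p, at 40.1 to 53.3 CPM under GFP and 20.7 to 30.8 CPM under POLR2G, without overlap. Its log2 fold change was −0.79 (SE 0.136, edgeR adjusted p = 0.131), and it was the 1 gene of the list that DESeq2 called. The next was the protease gene Furin (−0.21, SE 0.107). Of the other angiopoietin-like genes Angptl2 (0.26, SE 0.162) was tested and not called.

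Fasting- and glucagon-induced genes had a median of −0.31 (−0.20 without GFP replicate 1, the smallest with a library left out), with 9 of 12 at a lower fitted mean. Of the 12, 0 were called by edgeR or DESeq2 (2 at an unadjusted p under 0.05, both lower, against 4.1% of all genes tested). Ppargc1a is also in this list and was followed by Sesn1 (log2 fold change −0.31, SE 0.124), a stress-response gene. Igfbp1, a secreted IGF-binding protein of the fasted liver, ran from 109 to 415 CPM in the GFP and from 106 to 171 CPM in the POLR2G libraries, so 3 of the 4 POLR2G libraries lay within the range of the controls (given for its role). The 22 tested other secreted liver factors had a median of 0.098 (from 0.027 without POLR2G replicate 3 to 0.19 without GFP replicate 3), with 5 lower and 17 higher fitted means. Of the 22, 0 were called by edgeR or DESeq2 (4 at an unadjusted p under 0.05, all higher, against 4.2% of all genes tested). The smallest p belonged to Lcat, which encodes the plasma cholesterol acyltransferase (log2 fold change 0.23, SE 0.0783, adjusted p = 0.460), and Igf1 (0.25, SE 0.10, adjusted p = 0.530). The most abundant, Ahsg, the gene of fetuin-A and close relative of Fetub, had a log2 fold change of 0.0029 (SE 0.0915).

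**Figure D5:**
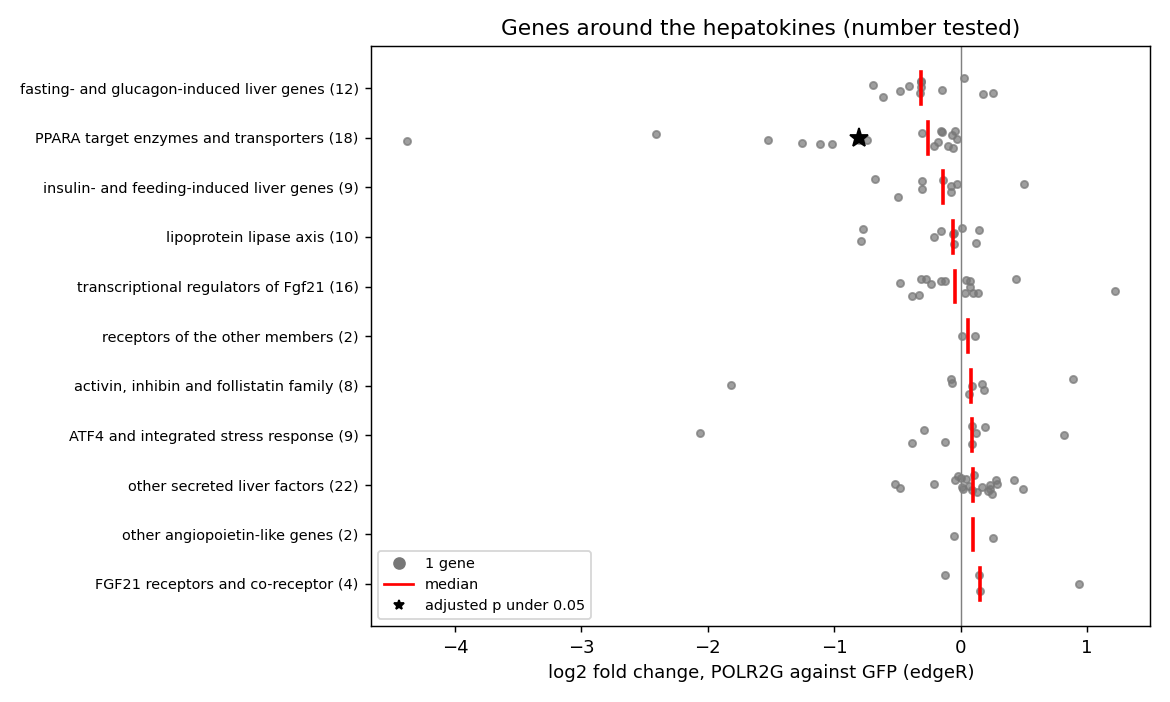
Log2 fold change (x axis, POLR2G against GFP, edgeR) of the tested genes in the 11 lists, 1 point per gene with a small vertical offset, red lines for the medians, and a star for the gene with an adjusted p under 0.05. The PPARA targets lie at or below 0 with a median of −0.26, and the star is Cd36. The fasting- and glucagon-induced genes have a median of −0.31, and the medians of the remaining lists run from −0.14 to 0.15.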

How the data were processed

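The deposited values are estimated counts per Ensembl gene, without normalization, and were rounded to whole numbers before the fits. Salmon 1.2.1 is listed, per the submitters' processing notes, which also list GRCm38 and mm10 as builds. How transcripts were combined into genes is not given in the sources used here. Names, positions and transcripts are from GENCODE M21 on GRCm38. Columns were matched to samples by library name. Counts were fitted with edgeR 4.0.16 (R 4.3.3; TMM; filterByExpr, minimum count 10, minimum total 15; group as the only term; two-sided; Benjamini-Hochberg over 10390 genes, threshold 0.05). The SE is the log2 fold change divided by the square root of F. The 95% intervals use the 9.38 total degrees of freedom of the test, residual plus prior, where the prior part is borrowed over genes. Exact permutation tests used all 70 arrangements of log2 CPM (prior count 2). The steps were tested on simulated data. No library repeated another: chi-square over degrees of freedom was 13.7 to 138 for the 12 pairs inside groups.

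The genes and lists were chosen with earlier results of these data known. Named genes are the hormone genes, Polr2g, called genes of each list or else its 2 smallest p, and the 5 genes most like Fgf21. Gm and Rik models, pseudogenes and the hormone genes themselves were left out of the last. Alternatives were RLE, upper quartile and no composition scaling, DESeq2 1.42.0, limma-voom (limma 3.58.1), no filter, a filter of 1 CPM in 4 libraries, Polr2g out of library sizes, the replicate number as a block, other prior counts (0.5 and 5) and each library left out. Some genes that this rule names are not reported here.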

Additional observations from a re-analysis of the deposited data

How the results depend on the processing

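Fgf21 was lower in the POLR2G libraries under all 18 alternatives, with a log2 fold change from −1.73 to −1.18 and no adjusted p under 0.05, and the count of hormone genes called was 0 in each. The sign of Angptl8, Inhbe, Fetub, Lect2 and Angptl6 also held in all 18, and that of Fst in 14 and of Gdf15 in 16. Fst was −0.30 with the replicate block, −0.072 in the same 6 libraries without it, −0.041 without GFP replicate 2 and from −0.29 (without POLR2G replicate 1) to 0.52 (without GFP replicate 3) with 1 library left out. Gdf15 was −0.026 with limma-voom and from −0.17 (without POLR2G replicate 4) through 0.40 (without POLR2G replicate 1) to 0.54 (without the unnumbered library) with 1 library left out, and its difference in mean log2 CPM was 0.020 with a prior count of 5. The cause of these changes was not tested. Over all genes 4 were called, Polr2g among them, against 130 by DESeq2 and 1 with library totals only. With 1 library left out, 1 to 6 were called. That number was 1 without POLR2G replicate 1 or replicate 4, and 2 without GFP replicate 2 or the unnumbered library. The replicate numbers are shared by 6 libraries. The replicate block called 2 genes there and gave Fgf21 a log2 fold change of −1.26, and the same 6 libraries without the block, a fit chosen after seeing the data, called 1 gene and gave −1.18. Libraries of the same number did not deviate together (correlations 0.064, −0.025 and 0.036), and 1 of 3 GFP libraries matched its own number best, so the numbers were not taken as pairs. With library totals only, the median of all genes moved to −0.079. Counts of 6 to 82 in a library limit Fgf21, Gdf15 and Fst.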

Other observations

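The levels of the hormone genes other than Fgf21 were compared with each other over the 8 libraries. Of 21 pairs 0 passed Benjamini-Hochberg adjustment, with a smallest adjusted permutation p of 0.721. The highest pair was Angptl8 with Inhbe (Pearson's r 0.705, exact permutation p = 0.0496; Spearman's rho 0.50, exact permutation p = 0.216). Without the 2 libraries farthest from the median of Angptl8 its r was 0.246, so the relation rests on those libraries; it was 0.672 after the group means were taken out. Angptl8 and Lect2 had an r of 0.654 (exact permutation p = 0.0687, rho 0.548, exact permutation p = 0.171), which was 0.680 without the 2 farthest libraries and 0.918 after the group means were taken out.

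Atf3, an immediate stress gene of the ATF family that was too weakly counted to be tested, had 17 counts in POLR2G replicate 3, 31 in the unnumbered POLR2G library and 0 in the other 6 libraries. It is named after its values were seen.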
